A study of Mus musculus with 8 samples.

Results

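The glutathione S-transferases described here are 10 genes of the alpha class (Gsta2, Gsta3 and Gsta4), the mu class (Gstm1, Gstm2, Gstm3, Gstm4 and Gstm6), the pi class (Gstp1) and the theta class (Gstt1). They were taken by symbol from a liver RNA-seq table of 22052 genes, and all 10 were found and tested. Between livers lacking Zfp36l1 and Zfp36l2 in hepatocytes and control livers, 3 of the 10 rose (Gstm3, Gsta4 and Gstm1), 3 fell (Gsta3, Gstm4 and Gstm6) and 4 did not pass the test (limma, adjusted p under 0.05), where 21.2% of all genes tested were higher and 17.0% lower. Both directions occurred within the alpha class and within the mu class. Of the summed level per kb of these 10 genes, the mu class came to hold a larger share.

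Glutathione S-transferases join the tripeptide glutathione to electrophilic compounds, which can then be exported from the cell and broken down to mercapturic acids. The cytosolic enzymes are dimers and are grouped in classes by sequence, and liver is the organ best known for high alpha-class and mu-class levels. Many of their genes are known to respond to the transcription factors NRF2 and CAR. ZFP36L1 and ZFP36L2, the proteins removed in the study, hasten the decay of mRNAs that carry AU-rich elements in their 3' untranslated regions (3' UTRs).

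The controls were 4 male mice homozygous for floxed Zfp36l1 and Zfp36l2 (Zfp36l1 fl/fl, Zfp36l2 fl/fl) without Cre. The other 4 males had the same floxed alleles with Alb-Cre, a recombinase driven by the albumin promoter and so active in hepatocytes, and are called dKO. All 8 were C57BL/6 mice aged 8 weeks that had been given corn oil intraperitoneally, so no group without corn oil was analysed. Values are normalised read counts, meaning gene read counts divided by 1 size factor per library. Libraries held 15253827 to 19299556 reads, and no library of a group was a copy of another (chi-square per gene of 15.0 to 32.6 between them). Zfp36l1 spanned 1182 to 1642 in controls and was lower in every dKO liver (209 to 267). Zfp36l2 spanned 997 to 1820 in controls and was also lower in every dKO liver (696 to 923; exact permutation test, 2-sided, p = 0.0286 for each, the smallest that 4 against 4 allows). Mitochondrially encoded genes took 4.06% to 4.74% of control values and 3.09% to 3.70% of dKO values.

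Markers of the labelled tissue were present in every liver. Summed hepatocyte markers spanned 1412350.0 to 1531550.0 in controls and 1495270.0 to 1575350.0 in dKO livers, with 3 of 10 higher and 3 lower. Markers of several other cell types were mostly higher in dKO livers. Of 9 bile duct markers 8 were higher in dKO livers and none lower, with sums of 950.04 to 1778 in controls and 8195 to 12468 in dKO livers. Spp1 made up most of that sum (705 and 9498 on average), and without it the sums were 456 to 545 and 671 to 1018. For monocytes and recruited macrophages 6 of 7 markers were higher, with sums of 407 to 1394 against 3339.6 to 5271. The same held for 6 of 8 Kupffer cell markers (6068 to 6791 against 9966 to 15016), all 6 neutrophil markers (70.9 to 324 against 661 to 926, with Mpo and Ltf at 0 in controls) and 6 of 8 stellate cell markers (3860 to 11199 against 19363 to 26293). Endothelial markers (2 of 6 higher, 1 lower), lymphocyte markers (1 of 8 higher, 1 lower) and erythroid markers (2 of 4 higher, 1 lower) did not move one way. No list had a marker at 0 in all 8 livers. Their part in the transferase results was not tested, and in such bulk samples fewer cells of a type cannot be told apart from less RNA per cell.

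The 10 genes lie on 5 chromosomes (mm10). Gsta2 and Gsta4 lie on either side of Gsta1 on chromosome 9, Gsta3 is on chromosome 1, Gstp1 is on chromosome 19 and Gstt1 on chromosome 10. The 5 mu genes sit within 1 cluster on chromosome 3. Coding sequences were 79.2% to 89.5% identical between mu members (10 pairs), 65.6% to 74.8% between alpha members (3 pairs) and 42.9% to 51.2% between classes (32 pairs). Such likeness bears on counting, because reads from an identical stretch cannot be assigned to 1 gene. Windows of 50 bases of the main transcript that recur exactly in another gene's transcript made up 64.2% of Gsta2, 62.3% of Gstp1, 28.8% of Gstm3, 23.1% of Gstm1, 11.8% of Gstm6 and 9.36% of Gstm2. Gsta3, Gsta4, Gstm4 and Gstt1 had none. No source used here says how reads that fit several genes were treated, so the counts of Gsta2 and Gstp1 are uncertain. Those of Gsta1, a close relative outside the 10 genes with 89.7% of such windows, are uncertain too.

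Gsta3 was the alpha gene that fell. Its enzyme is known in mice for conjugating the epoxide of aflatoxin B1. The gene (ENSMUSG00000025934) lies at chr1:21240589-21265661 on the plus strand. Controls 1 to 4 held 24349.6, 28139.9, 29054 and 31430.1 normalised read counts, and dKO livers 1 to 4 held 11609.7, 10945, 11032 and 10384. All 4 dKO livers lay below all 4 controls, and they were close to one another. The means were 28243 ± 2943 (SD, n = 4) and 10993 ± 502, a level 38.9% of control (log2 difference -1.36, SE 0.09, limma adjusted p = 4.1e-07). Of all genes tested, 38.2% passed this test and 36.4% had groups that did not overlap. The difference ranged from -1.43 to -1.08 over 18 alternative analyses and passed in each.

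The promoter of Gsta3 was the only member promoter that held TGACNNNGC, the core of the antioxidant response element through which NRF2 acts. RefSeq gives promoter windows, from 250 bases before to 50 bases after a transcript start, for 9 of the 10 members, all but Gsta4. Only this form of the element was searched, on both strands, so related forms in any of the windows were not counted. It was found in 14.0% of 27025 genes with a window. The Gsta3 window and that of Gstm3, the member that rose most, are shown to set the fallen and the risen gene side by side (GRCm38.p6, 5' to 3' along each gene, the element in capitals).
Gsta3, chr1:21240335-21240634, plus strand: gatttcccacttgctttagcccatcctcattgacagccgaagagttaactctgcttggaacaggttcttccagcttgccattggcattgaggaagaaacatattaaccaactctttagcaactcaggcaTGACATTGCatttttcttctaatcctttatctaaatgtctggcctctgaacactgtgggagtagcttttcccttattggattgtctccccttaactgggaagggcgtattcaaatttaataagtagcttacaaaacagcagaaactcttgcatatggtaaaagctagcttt
Gstm3, chr3:107969125-107969424, minus strand: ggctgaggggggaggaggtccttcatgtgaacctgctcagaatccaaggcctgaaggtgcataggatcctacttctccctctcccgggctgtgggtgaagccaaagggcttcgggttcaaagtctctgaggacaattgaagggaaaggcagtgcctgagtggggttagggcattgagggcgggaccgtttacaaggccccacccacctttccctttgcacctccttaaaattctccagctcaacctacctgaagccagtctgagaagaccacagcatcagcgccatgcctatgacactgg
The Gsta3 match reads TGACATTGC, is on the plus strand and begins at position -121 relative to the transcript start. The Gstm3 window holds no match to these letters in its 300 bases. A match is a description of sequence and not a measured binding site.

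Gsta4 rose. It encodes the alpha-class enzyme known for clearing 4-hydroxynonenal, an aldehyde made when lipids are oxidised, and lies at chr9:78182774-78209349 on the plus strand (ENSMUSG00000032348). Its normalised read counts were 959, 1086, 855 and 1297 in controls and 2509.99, 2566, 1618 and 1703 in dKO livers. The groups did not overlap, and dKO livers 1 and 2 were the highest. The mean went from 1049 ± 190.2 to 2099 ± 508 (log2 difference 0.98, SE 0.16, adjusted p = 0.000457).

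Gsta2 (ENSMUSG00000057933, chr9:78331018-78355788, minus strand) was not called. Controls held 825, 886, 789.9 and 1531 normalised read counts and dKO livers 1836, 2016, 879 and 1303.5. Control 4 stood above dKO livers 3 and 4, so the groups overlapped. The log2 difference was 0.57 (SE 0.25, limma adjusted p = 0.0975). It passed in 2 of the 18 alternatives, without control 4 (0.79, limma adjusted p = 0.0262) and without dKO 3 (0.80, limma adjusted p = 0.0162). Gsta2 shares its first 196 coding bases with the nearby Gsta1, and the 2 coding sequences are 97.5% identical. The first 120 of those bases are shown because reads from them fit both genes.
Gsta2 and Gsta1, coding bases 1 to 120: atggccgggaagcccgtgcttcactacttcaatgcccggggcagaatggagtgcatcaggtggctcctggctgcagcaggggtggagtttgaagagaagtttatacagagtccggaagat
Gsta1 itself, outside the 10 genes, rose 5.85-fold, from 103 ± 59.7 to 601 ± 231 (log2 difference 2.63, SE 0.36, adjusted p = 0.000105). It held 46.2, 97.5, 81.0 and 186 normalised read counts in controls and 847, 745, 369.6 and 441 in dKO livers. The lowest dKO liver was above the highest control, but these counts carry the limit of shared reads given above. Gsta1 was below Gsta2 in every control and in every dKO liver.

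Gstm3 rose most of the 10. It is a mu-class gene known to be induced through NRF2 in mouse liver, at chr3:107963696-107969283 on the minus strand (ENSMUSG00000004038). Controls held 1732, 2437, 2139 and 4011 normalised read counts, and dKO livers 16676, 15716, 7356 and 7773. Every dKO liver was above every control. Within the dKO group livers 1 and 2 were about alike and well above livers 3 and 4, and the highest was 2.27 times the lowest. The mean rose 4.61-fold from 2579.8 ± 997 to 11880.3 ± 5002 (log2 difference 2.17, SE 0.29, adjusted p = 8.6e-05), and the alternatives gave 1.98 to 2.41.

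Gstm1, the most abundant mu gene, rose by a smaller factor. It lies at chr3:108012255-108017973 on the minus strand (ENSMUSG00000058135). Its counts were 23052, 25772, 24305 and 31865 in controls and 48019, 44610.3, 40325 and 29104 in dKO livers. The groups overlapped, since dKO 4 was below control 4, while the other 3 dKO livers exceeded every control. The mean went from 26248 ± 3906 to 40515 ± 8232 (log2 difference 0.61, SE 0.16, adjusted p = 0.00756). The adjusted p was highest without dKO 1, at 0.0364. Gstm1 and Gstm3 are the most alike pair of members, with coding sequences 89.5% identical. Their longest shared run is shown because both genes rose and reads from it fit either.
Gstm1 and Gstm3, Gstm1 coding bases 389 to 500: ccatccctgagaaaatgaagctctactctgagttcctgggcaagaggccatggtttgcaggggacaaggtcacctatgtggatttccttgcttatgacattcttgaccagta
The share of Gstm3 windows of 100 bases that recur in any other gene was 13.8%, and that of Gstm1 7.73%. Only 1.7% of the Gstm1 windows recur in Gstm3, beside 3.4% in Gstm2-ps1 and 3.3% in Gm8834. Gstm3 shared most with Gm8834 (7.4%).

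Gstm4 and Gstm6 fell. Gstm4 (ENSMUSG00000027890, chr3:108040408-108044894, minus strand) had 1354, 1453, 1321 and 1621 normalised read counts in controls and 755, 713, 557 and 368 in dKO livers. The groups lay well apart, with dKO 4 the lowest. Its mean went from 1437 ± 134 to 598 ± 176 (log2 difference -1.31, SE 0.18, adjusted p = 0.000113). Gstm6 (ENSMUSG00000068762, chr3:107938847-107943749, minus strand) had 1459, 2108, 1832 and 2295 in controls and 1267, 1169, 955.5 and 908.7 in dKO livers. Its groups did not overlap, though control 1 was near dKO 1. The mean went from 1924 ± 363 to 1075 ± 171 (log2 difference -0.83, SE 0.14, adjusted p = 0.00052).

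Gstm2 (ENSMUSG00000040562, chr3:107981702-107986453, minus strand) was not called. Controls held 860.5, 1328, 1255 and 1889 normalised read counts and dKO livers 2299.8, 1919, 1173 and 1322. Both groups covered much the same range, and dKO livers 1 and 2 were above every control. The log2 difference was 0.33 (SE 0.23, adjusted p = 0.292) and did not pass in any alternative.

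Along the chromosome, mu genes that rose and mu genes that fell were interleaved. In order of position the cluster holds Gstm5, Gstm7, Gstm6, Gstm3, Gstm2, Gstm1 and Gstm4, with Gstm5 on the plus strand and the others on the minus strand. Their log2 differences in that order were 1.14, -0.25, -0.83, 2.17, 0.33, 0.61 and -1.31. Gstm3, the gene that rose most, thus lay next to Gstm6, which fell, and Gstm1, which rose, next to Gstm4, which fell. Per kb of exon, the ratio of Gstm3 to Gstm4 ran from 1.67 to 3.22 in controls and from 17.2 to 28.8 in dKO livers.

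**Figure D1:**
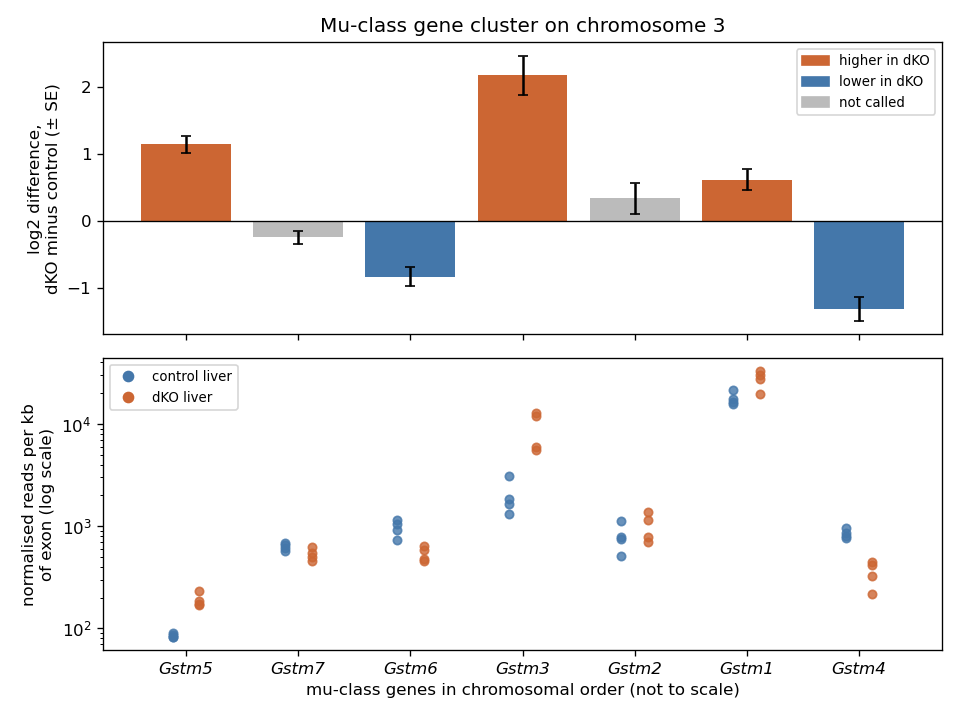
The 7 mu-class genes in chromosomal order. The upper panel gives the log2 difference, dKO minus control, with bars of 1 SE and colour by call. The lower panel gives normalised read counts per kb of exon in each liver on a log scale. Gstm3 rose by 2.17 and Gstm4 at the end of the row fell by 1.31.

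Gstp1, the pi-class gene (ENSMUSG00000060803, chr19:4035407-4037985, minus strand), was counted at a low level and was not called. Controls held 26.7, 89.3, 46.3 and 61.8 normalised read counts and dKO livers 55.3, 33.3, 34.9 and 24.2. The groups overlapped, and control 1 was lower than 3 of the dKO livers. The log2 difference was -0.53 (SE 0.36, adjusted p = 0.278). The processed pseudogene Gstp-ps on chromosome 1, looked up after the values of Gstp1 were seen, held 979 ± 265 in controls and 1302 ± 181 in dKO livers (log2 difference 0.44, adjusted p = 0.0408). Its groups overlapped, and it passed in 9 of 18 alternatives, with an adjusted p of up to 0.129 without control 2. The last 303 coding bases of Gstp1 are identical in Gstp2 and in Gstp-ps. The first 120 of them are shown because a read from this stretch fits all 3 genes.
Gstp1, Gstp2 and Gstp-ps, Gstp1 coding bases 331 to 450: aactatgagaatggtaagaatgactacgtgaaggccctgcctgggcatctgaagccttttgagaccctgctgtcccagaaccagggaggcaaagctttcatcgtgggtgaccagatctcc
How reads of the pi class were divided among these copies cannot be told from the counts, so the level given for Gstp1 is uncertain.

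Gstt1, the theta-class gene known for acting on small halogenated compounds (ENSMUSG00000001663, chr10:75783813-75798584, minus strand), was not called. Its normalised read counts were 3355, 3227, 4181 and 3812 in controls and 3092, 3618, 3099.8 and 2928 in dKO livers. The ranges overlapped through dKO 2, and the other 3 dKO livers lay below every control. The mean went from 3644 ± 438 to 3185 ± 299 (log2 difference -0.19, SE 0.10, adjusted p = 0.14). The alternatives gave differences from -0.25 to -0.03.

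**Figure D2:**
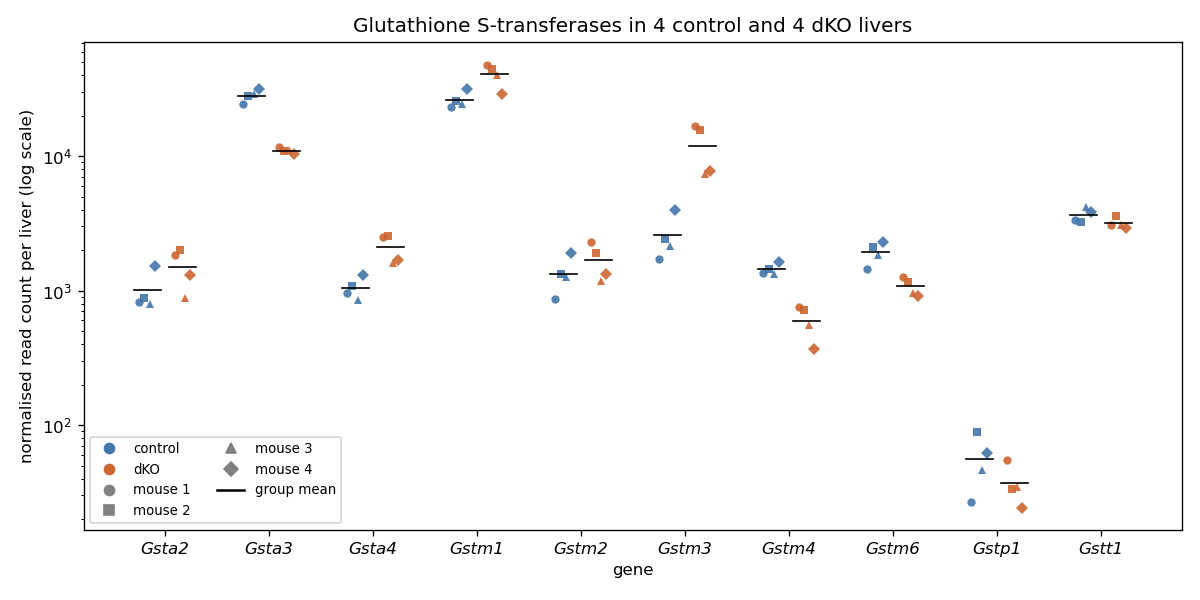
Normalised read counts of the 10 transferase genes on a log scale. Each point is 1 liver, its shape gives the mouse number within its group, and lines mark group means. Gsta3, Gsta4, Gstm3, Gstm4 and Gstm6 show groups that do not overlap.

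In all, 6 of the 10 genes passed the test and 5 had groups without overlap, beside 38.2% and 36.4% of all genes tested. The median log2 difference was 0.07 over the 10 genes and 0.03 over all genes, and the median size of the difference was 0.72 against 0.48. Their calls stayed the same in 178 of 180 alternative values, and the other 2 were those of Gsta2 given above.

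Levels can be compared between genes only per length. Per kb of the main transcript, Gstm1 (20363 ± 3030.04) and Gsta3 (19385 ± 2020) led in controls and overlapped. Gstt1 followed at 3514 ± 422 and overlapped no other gene. Then came Gstm3 (1968 ± 760.3), Gstm6 (1668 ± 315), Gstm2 (1253 ± 398), Gsta2 (1159 ± 404), Gsta4 (1074 ± 195) and Gstm4 (842 ± 78.7), and genes next to each other in this run overlapped. Gstp1 was last at 68.2 ± 32.2. In both groups the levels of Gstp1 and Gsta2 carry the limit of shared reads given above. In dKO livers the level of Gstm1 was 31431 ± 6387. Gstm3 came next at 9062 ± 3815 and overlapped Gsta3 at 7545 ± 344. Then came Gstt1 (3071 ± 289), Gsta4 (2149 ± 520.2), Gsta2 (1734 ± 595) and Gstm2 (1578 ± 493), of which the last 3 overlapped. Gstm6 (932 ± 148), Gstm4 (350.4 ± 103) and Gstp1 (45.0 ± 15.99) ended the order. Of these Gstm6 overlapped Gsta2 through dKO 3, and Gstm4 and Gstp1 overlapped no other gene.

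By class, the summed level per kb of main transcript fell for alpha, from 21617 ± 2459.7 to 11428 ± 1302 with no overlap. For mu it was 26095 ± 4528 in controls and 43353 ± 10407 in dKO livers, and dKO 4 was below control 4. The alpha share of the 10 genes was 40.5% to 43.6% in controls and 18.2% to 23.6% in dKO livers. The mu share was 48.2% to 53.4% in controls and 69.9% to 77.4% in dKO livers, so both shares separated the groups. The theta share went from 6.91% ± 0.984 to 5.43% ± 0.886 and the pi share from 0.132% ± 0.0599 to 0.0767% ± 0.0159. That pi share rests on Gstp1 alone, whose count is uncertain because of reads shared with Gstp2 and Gstp-ps. Without Gsta3 the alpha sum was 1.74 times that of controls, and without Gstm3 the mu sum was 1.42 times that of controls, with overlapping groups in both. Shares depended on the length used, because annotated exons of Gsta3 add up to 4344 bases and its main transcript to 1457. Per kb of all annotated exon the alpha share was 24.9% ± 0.716 in controls and 12.1% ± 1.51 in dKO livers, and the mu share 67.7% ± 1.77 and 83.2% ± 2.23. No test was made of a class sum. Summed reads of all 10 genes overlapped between groups, at 57973 to 79813 in controls and 55819 to 88120.2 in dKO livers.

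**Figure D3:**
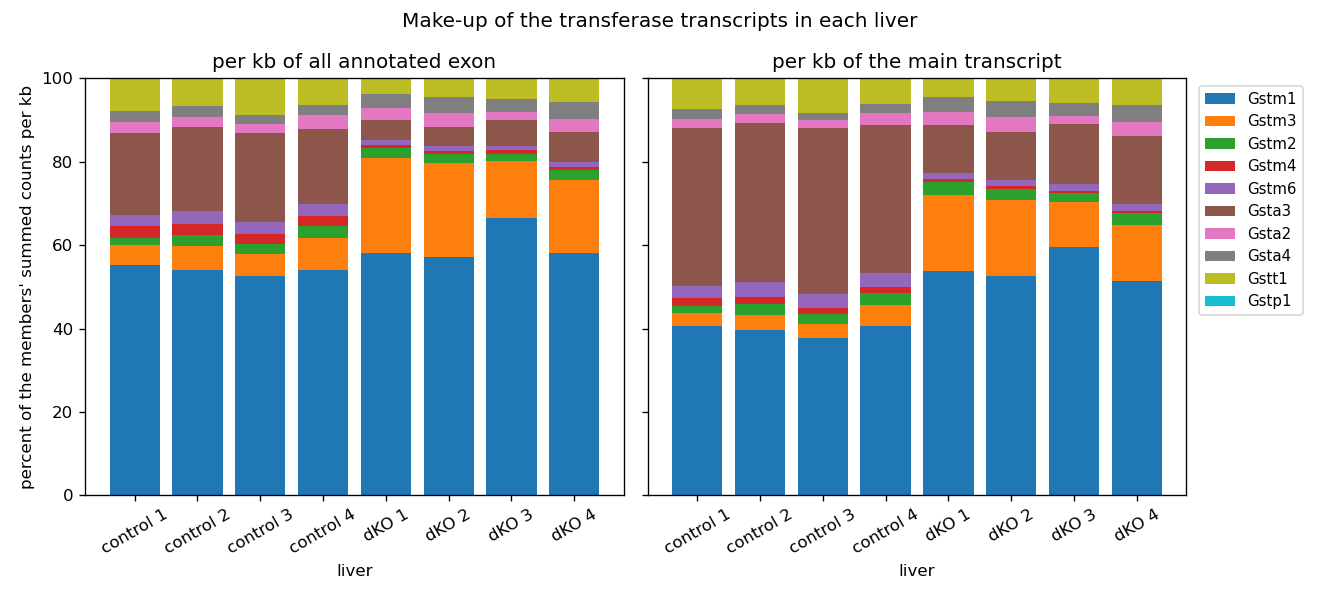
Share of each gene in the summed normalised read counts per kb of the 10 transferases, for each liver, per kb of all annotated exon (left) and of the main transcript (right). In both, Gstm3 took a larger share and Gsta3 a smaller share in each dKO liver than in any control.

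Within the groups, many of the genes followed the same order of livers. In 7 of 10 genes (all but Gsta3, Gstp1 and Gstt1) dKO livers 1 and 2 were both above dKO livers 3 and 4, as in 16.2% of all genes tested and 19.2% of those with a mean of 100 or more. In 8 of 10 (all but Gstp1 and Gstt1) control 4 was the highest control, as in 28.2% and 21.3% of those genes. The order was noticed in the values and is given with no test. Genes that rose and genes that fell shared it, since Gstm4 and Gstm6 were also lowest in dKO livers 3 and 4. Control 4 also had the highest summed markers of monocytes (1394), stellate cells (11199), neutrophils (324), bile duct cells (1778) and hepatocytes (1531550) among controls. It had the lowest sum for Kupffer cells (6068) and was not the highest for endothelial, lymphocyte or erythroid markers. The part of those cells was not tested.

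**Figure D4:**
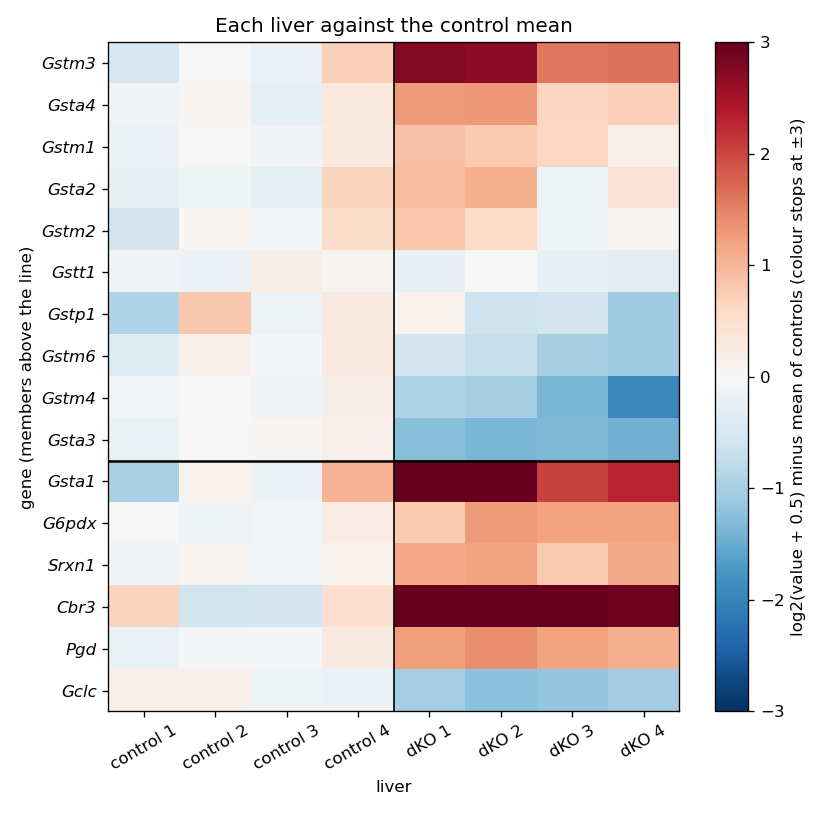
Each liver's log2 value minus the mean of the controls for the 10 transferases (above the line) and 6 other genes (below it). Red is higher and blue lower than the control mean. Gstm3, Gsta4 and Gsta1 are redder in dKO livers 1 and 2 than in 3 and 4, and Gsta3 is similarly blue in all 4 dKO livers.

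Other transferase genes, from a list of 19 of which 15 were tested, also moved both ways, with 5 higher, 3 lower and 7 not called (median log2 difference -0.04). Over all genes tested 21.2% were higher and 17.0% lower. Besides Gsta1, the higher ones in the list were Gstm5, Mgst3, Hpgds and Mgst2. Gstm5 went from 109 ± 4.1 to 243 ± 38.9 (1.14, SE 0.13, adjusted p = 2.36e-05). Mgst3, a membrane-bound transferase, went from 287 ± 44.3 to 490.2 ± 68.6 (0.77, SE 0.13, adjusted p = 0.000498). Hpgds, the prostaglandin D synthase of blood-derived cells, went from 24.1 ± 9.7 to 92.6 ± 22.1 (1.98, adjusted p = 0.000259). Macrophage markers were higher too, and their part in the Hpgds difference was not tested. Mgst2 was near the counting floor, at 1.6 and 6.74 (adjusted p = 0.0421), and passed in 8 of the 16 alternatives that gave it a value. Mgst1, the abundant microsomal enzyme, fell from 45352 ± 3405 to 27007 ± 1701 (-0.75, SE 0.10, adjusted p = 6.61e-05). Gstz1, which acts in tyrosine breakdown, fell from 11627 ± 451 to 7563 ± 432 (-0.62, SE 0.07, adjusted p = 3.3e-05). Gstk1 fell by 0.27 (adjusted p = 0.0492) and lost its call in 12 of 18 alternatives. Gstm7 (-0.25), Gstt2 (-0.13), Gstt3 (-0.04), Gsto1 (-0.19) and Gstcd (-0.22) were not called.

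**Figure D5:**
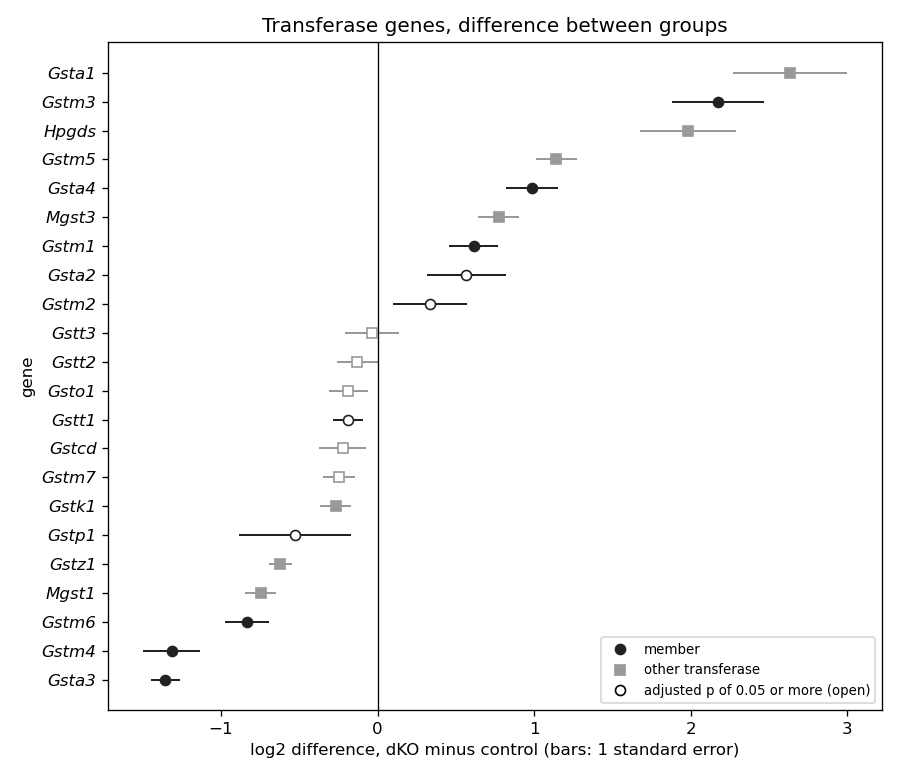
Log2 difference between dKO and control livers, with bars of 1 SE, for the 10 transferases (circles) and the other transferase genes with a mean of 10 or more (squares). Filled symbols passed the test. Values run from -1.36 for Gsta3 to 2.63 for Gsta1.

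Genes that supply glutathione did not move as one group. Of 15 tested 6 were higher and 3 lower, beside 21.2% and 17.0% of all genes tested. The median log2 difference was 0.38, although without dKO 2 or without dKO 4 only 3 were higher. Gclc, the catalytic subunit of the first enzyme of glutathione synthesis, fell from 7584 ± 948 to 3486 ± 219 (-1.12, SE 0.09, adjusted p = 1.96e-06). Cbs, which starts the conversion of homocysteine to cysteine, went from 10989.6 ± 481 to 5553 ± 777 (-0.99). Gss, the second enzyme of the synthesis, rose from 1214 ± 54.7 to 2118 ± 226 (0.80, SE 0.09, adjusted p = 1.43e-05), and Ggct rose by 0.67.

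Of 14 other enzymes that use glutathione, 5 were higher and 3 lower (median 0.14), beside 21.2% and 17.0% of all genes tested. Gpx3, the secreted peroxidase, rose 9.84-fold from 134 ± 30.4 to 1315 ± 305 (3.29, SE 0.18, adjusted p = 7.87e-08). Gpx4, which reduces lipid hydroperoxides, rose 2.35-fold (1.23, SE 0.09) and Gpx7 3.5-fold (1.81). Glo1, which detoxifies methylglyoxal with glutathione, fell to 0.453 of control (-1.14, SE 0.08, adjusted p = 6.45e-07).

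Among 14 genes of conjugate export and further processing, 4 were higher and 3 lower (median -0.04), beside 21.2% and 17.0% of all genes tested. With quantile normalization, or with control 2, control 3 or dKO 4 left out, 2 were higher. Nat8, which acetylates cysteine conjugates in the last step to mercapturic acids, fell from 167 ± 31.2 to 21.1 ± 4.68 (-2.96, SE 0.22, adjusted p = 7.57e-07). The exporters Abcc4 (57.1 to 143 on average, 1.29) and Abcc5 (168 to 338, 1.03) rose, and Abcc1 was also called higher (68.3 to 135). Abcc2 (16403 to 14146) and Abcc3 (7993 to 6819) stood far higher in both groups and were not called (limma adjusted p = 0.14 and 0.139). Lap3, an aminopeptidase, fell by 0.36, and that call was lost with quantile normalization (adjusted p = 0.23).

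Of 16 transcription factors known to act on transferase genes, 4 were higher and 5 lower (median -0.00034), beside 21.2% and 17.0% of all genes tested. Without control 1 or without control 3, 2 of the factors were higher. Nr1i3, which encodes CAR, fell from 1226 ± 331 to 418 ± 105 (-1.55, SE 0.21, adjusted p = 9.51e-05). Maff, a small MAF protein, rose by 1.49 and Cebpb, a factor of the C/EBP family, by 0.55. Nfe2l2, which encodes NRF2, was called higher by 0.32 (limma adjusted p = 0.0207). Its groups overlapped, and it passed in 13 of 18 alternatives.

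Of 16 known NRF2 targets outside the transferases and glutathione synthesis, 10 were higher and 3 lower, beside 21.2% and 17.0% of all genes tested. Their median log2 difference was 0.52 beside 0.03 over all genes. With quantile normalization, where the median over all genes was -0.079 in place of 0.031, 1 was lower. Cbr3, a carbonyl reductase, rose 8.93-fold from 13.9 ± 6.48 to 124 ± 20.53 (3.22, SE 0.32, adjusted p = 7.66e-06). Pgd (1.24) and G6pdx (1.11), enzymes of the pentose phosphate pathway, and Srxn1 (1.07), a sulfiredoxin, rose too, with no overlap between groups. The 3 lower targets were Me1 (-0.71, passing in 7 of 18 alternatives), Ephx1 (-0.42) and Blvrb (-0.50). Among transferases Gstm3 and Gsta1 rose most, while Gsta3, Gstm4, Gstm6 and Mgst1 were among those that fell. Gclc, a known NRF2 target of glutathione synthesis, fell too. The part of NRF2 in these differences was not tested. Gclm, which encodes the partner subunit of Gclc, rose by 0.24 (limma adjusted p = 0.0253) and passed in 13 of 18 alternatives.

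None of the 10 transferase genes held TATTTAT, the DNA form of the element that proteins of the ZFP36 family bind, in an annotated 3' UTR, against 30.1% of 15426 tested genes with one. Their longest 3' UTRs were 66 to 828 bases, and the median of tested genes was 1096. The shorter core ATTTA occurred once, at position 468 of the 699-base 3' UTR of Gsta3, shown because it is the only such core in the 10 genes (core in capitals).
Gsta3 3' UTR site: acaaacaatacATTTAtgttcaatata
These letters say nothing of whether either protein binds the transcripts.

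Genes with the profile over the 8 livers most like that of each class's leading member were ranked by root mean square distance of centred log2 values among 11261 genes. For Gsta3 they were Tfpi2 (0.0813), Nat8f1 (0.0983) and Cyb5b (0.107). For Gstm1 they were Lmo4 (0.108), Rfwd3 (0.148) and Arhgap18 (0.151). The distances for Gstt1 were 0.0525 for Smyd5, 0.0593 for Snhg17 and 0.061 for Mrpl42. For Gstp1 they were larger, at 0.290 for Gm19680, 0.357 for Sesn3 and 0.372 for Mnd1.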

How the data were processed

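Liver total RNA of 8 mice, 4 per group, was analysed, and each library is 1 mouse. The build mm10 and the tools HISAT2 2.0.5, DESeq2, featureCounts 1.5.0-p3 and fastp are named, without their roles, per the submitters' processing notes. The sources used here do not give read length, annotation, strand or the treatment of multi-mapping reads. The deposited signal values are named for FPKM, but each is a whole multiple (within 0.001) of 1 step per library, so the authors divided gene counts by a size factor. For dKO 1 that step (1.0056) is too near 1 to be told from rounding automatically. Still, 100% of the dKO 1 values were whole multiples of it. The log-scale test chosen for FPKM was kept.

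limma 3.58.1 (R 4.3.3, eBayes with trend) compared the groups on log2(value + 0.5) over 20055 genes with a mean of 0.5 or more, 2-sided, with Benjamini-Hochberg adjustment over all of them and a threshold of 0.05. Precision is limited by 4 mice a group. A count of 0 allows up to 3 counts per library, or 2.55 to 3.43 normalised counts, for counting error only. Alternatives were other pseudocounts (1 and 5) and filters (a mean of 10, or none), TMM and quantile normalization, robust variances, edgeR 4.0.16 and DESeq2 1.42.0 on recovered reads, mouse number as a block, and each liver left out. The test was tested on simulated data. Class levels used 2 lengths, the second (main transcript) chosen after the data were seen. Positions and transcripts came from GENCODE M21, and 21796 of 22052 identifiers matched a symbol. Coding-sequence identity was used in place of the planned protein identity. Named were all 10 transferases, listed other transferases with a mean of 10 or more, up to 4 called genes of each other list by adjusted p (1 of which is not reported here), the targeted genes, and the 3 nearest profiles. Mgst2, Gstp-ps, Abcc1, Abcc2, Abcc3, Gclm, Nfe2l2, Me1, Ephx1 and Blvrb were named after their values were seen. The 10 genes and the lists were chosen with earlier results of these data known.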

Additional observations from a re-analysis of the deposited data

Results flagged for a closer look

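In groups of 4 livers, a liver was set apart when its gap to the nearest other took up more of the group's range than Dixon's critical value for 4 samples allows. This occurred 9 times over 57 named genes in both groups, and chance gives about 1 in 20 groups. Among the 10 transferases it was Gsta2 only, where control 4 held 1531 normalised read counts and the other controls 789.9 to 886. In Gstt3, dKO 3 held 633 and the other dKO livers 1107 to 1144. In Gstk1, dKO 1 held 2038 against 1493 to 1551. In Gpx7, control 4 held 51.5 against 22.1 to 26.7, and dKO 3 held 63.9 against 122 to 133. Control 3 was low for Maff (77.8 against 164 to 182), Cebpb (2151 against 2817 to 2949) and Zfp36l2 (997 against 1722 to 1820). For Zfp36l1, dKO 4 held 267 against 209.5 to 214.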

How the results depend on the processing

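The 10 transferases gave 3 higher and 3 lower calls in the 18 alternatives, except that 4 were higher without control 4 or without dKO 3. Of 180 alternative values for them 178 kept direction and call. With mouse number as a replicate block, 3 were higher and 3 lower, and 4021 genes were higher and 3112 lower of all tested, beside 4244 and 3410 without it. Same-numbered livers correlated by 0.032, -0.069, 0.037 and 0.077, and not every liver correlated best with its own number. These values gave no sign that the numbers pair the mice, but so few livers cannot exclude it. With quantile normalization 2 genes of conjugate export were higher and 1 NRF2 target was lower. With 1 liver left out at a time, glutathione supply genes called higher ranged from 3 to 6, conjugate export genes from 2 to 5 and regulators from 2 to 4. The cause was not tested. Among uncalled genes, with 1 liver left out the difference of Gstt2 ranged from -0.21 to 0.021 and that of Gstt3 from -0.13 to 0.17, both highest without dKO 3. Of the values for other named genes 819 kept their call, 11 gained one, 13 lost one and 3 reversed. The length used moved the alpha share of controls from 24.9% to 42.2% and the mu share from 67.7% to 50.7%. Gstp2, Mgst2, Gsto2 and Gstt4 had control means under the counting floor.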
